A study of Mus musculus with 40 samples.

Results

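The 43 genes described here are interferon-stimulated genes (ISGs), measured in RNA of the mouse jejunum, the middle stretch of the small intestine. They are listed by name, and each stands for the brightest transcript cluster (the unit into which the array groups its probes) that carries its symbol alone, out of 36155 genes with such a cluster. All 43 were matched, 42 of them to a single cluster, and every cluster overlapped the RefSeq gene of that name on the mouse genome GRCm38. All signals and differences below are log2 values, and a step of 1 stands for a doubling.

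RNA came from 40 female mice of 10 to 12 weeks, backcrossed for more than 10 generations to C57BL/6N. KO mice carried the deletion of Sftpd, the gene of surfactant protein D (a collectin of mucosal host defense), in all cells, and WT mice were their littermates. Each mouse received a single intraperitoneal injection of doxorubicin at 20 mg/kg, a chemotherapeutic agent that damages DNA, or an equal volume of saline, and was killed after 3 or 7 days. The groups, each of 5 mice with 1 array per mouse, were KO-Dox3, KO-NaCl3, WT-Dox3, WT-NaCl3, KO-Dox7, KO-NaCl7, WT-Dox7 and WT-NaCl7. Doxorubicin mice that lost too much weight were killed before their day, so that the arrays show those that lasted, and the RNA came from a piece of the whole gut wall with all its cell types.

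Across the 40 arrays, medians lay between 4.38 and 4.66 and correlations within groups between 0.9748 and 0.9946. Background, from 23 probe sets, had a mean of 3.45 and reached 6.99 at most. Of the 43 genes, 31 had a mean above that value and 20 exceeded it on every array, while the other 11 of the 31 dipped under it on some arrays. Ifit2, Mx1, Mx2, Isg15 and Cxcl10 lay under it on all arrays, and Dhx58, Oas2, Rsad2, Gbp3, Iigp1, Ifi27l2a and Rtp4, with means under it, rose above it on some. Within the range of background a change can be larger than measured. Markers of jejunal enterocytes averaged 17.94 to 18.80 in every mouse, so that the tissue label held against them. Sftpd lay between 3.83 and 4.31 in all 40 mice, at the level of background in both genotypes, so that its signal does not check the genotype labels.

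Interferons are cytokines that infected or damaged cells secrete. Type I interferons (the alpha family and Ifnb1) act through the receptor pair Ifnar1 and Ifnar2, type III interferons through Ifnlr1 and Il10rb, to which the gut epithelium is known to respond, and type II interferon (Ifng), from T and NK cells, through Ifngr1 and Ifngr2. The kinases Jak1, Jak2 and Tyk2 then activate transcription factors, among them Stat2. Stat2 and Irf9 belong to a complex that binds a DNA element called ISRE, and a second DNA element of the interferon pathways is called GAS. The genes so switched on sense viral nucleic acid, block viral replication, attach the small modifier ISG15 to proteins and attract lymphocytes. Most ISGs answer to type I or III interferon, while some, such as Irf1, Cxcl9, Igtp and the guanylate-binding proteins, are known to answer strongly to Ifng. DNA damage can also set off the pathway through DNA sensors in the cytosol.

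Promoters of some of these genes are printed to show where the element of the pathway stands in them. RefSeq promoters of GRCm38.p6, of 300 bases (250 before the start of the gene and 50 after it), were found for 32 of the 43 genes and were not used for the other 11. The core of the ISRE was searched as GAAA repeated after any 2 bases and, for the other strand, as TTTC repeated after any 2 bases, with overlapping matches counted. It was present for 17 of the 32 genes (53.1%), against 3.99% of all 27025 genes with a promoter in the table, and in 3.44% of the 32851 promoters themselves. The GAS element, searched as TTCNNNGAA (the same on both strands), was present for 7 of the 32 (21.9%), against 9.55% of all genes. The ISRE core was present for 11 of the 18 genes in the table that rose in KO mice at day 3 and for 6 of the 14 others. A match is only a run of letters, and its absence says that these letters are not in this window.
The printed promoters are those of the 4 genes with the strongest evidence of any doxorubicin effect that are in the table (Ifit3, Oas1a, Irf7 and Ifit2), of the 2 with the weakest (Cxcl9 and Ifi35), and of Isg15 and Igtp, which were added after the motif counts were seen because Isg15 holds 3 overlapping cores and Igtp both elements. Capitals mark the ISRE core.
Ifit3 (chr19:34583279-34583578, plus strand): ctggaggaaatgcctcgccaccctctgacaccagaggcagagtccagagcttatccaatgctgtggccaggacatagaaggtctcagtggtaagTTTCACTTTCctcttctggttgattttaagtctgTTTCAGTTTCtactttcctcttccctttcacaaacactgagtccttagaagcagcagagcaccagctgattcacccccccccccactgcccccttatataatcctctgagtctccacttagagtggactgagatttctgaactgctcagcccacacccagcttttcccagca
Oas1a (chr5:120907476-120907775, minus strand): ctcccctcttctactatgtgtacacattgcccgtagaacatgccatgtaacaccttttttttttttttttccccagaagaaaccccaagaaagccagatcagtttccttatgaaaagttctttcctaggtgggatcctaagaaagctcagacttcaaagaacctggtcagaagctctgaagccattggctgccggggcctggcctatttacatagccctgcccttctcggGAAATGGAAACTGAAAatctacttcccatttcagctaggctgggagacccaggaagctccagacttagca
Irf7 (chr7:141266375-141266674, minus strand): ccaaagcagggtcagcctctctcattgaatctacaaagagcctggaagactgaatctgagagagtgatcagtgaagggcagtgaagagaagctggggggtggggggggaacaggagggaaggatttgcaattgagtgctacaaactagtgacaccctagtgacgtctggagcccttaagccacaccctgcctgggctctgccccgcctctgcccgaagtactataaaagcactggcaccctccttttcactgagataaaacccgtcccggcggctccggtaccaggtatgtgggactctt
Ifit2 (chr19:34550444-34550743, plus strand): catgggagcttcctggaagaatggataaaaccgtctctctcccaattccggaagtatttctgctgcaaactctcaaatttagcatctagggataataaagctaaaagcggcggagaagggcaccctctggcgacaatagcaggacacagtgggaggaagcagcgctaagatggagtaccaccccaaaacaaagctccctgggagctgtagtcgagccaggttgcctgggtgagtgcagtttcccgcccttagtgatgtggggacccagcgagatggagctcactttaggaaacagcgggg
Cxcl9 (chr5:92328030-92328329, minus strand): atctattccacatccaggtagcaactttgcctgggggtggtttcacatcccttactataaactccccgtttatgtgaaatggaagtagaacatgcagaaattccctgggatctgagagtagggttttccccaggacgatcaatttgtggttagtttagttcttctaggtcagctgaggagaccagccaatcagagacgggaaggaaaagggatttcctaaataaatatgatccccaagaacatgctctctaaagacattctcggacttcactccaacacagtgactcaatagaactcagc
Ifi35 (chr11:101448162-101448461, plus strand): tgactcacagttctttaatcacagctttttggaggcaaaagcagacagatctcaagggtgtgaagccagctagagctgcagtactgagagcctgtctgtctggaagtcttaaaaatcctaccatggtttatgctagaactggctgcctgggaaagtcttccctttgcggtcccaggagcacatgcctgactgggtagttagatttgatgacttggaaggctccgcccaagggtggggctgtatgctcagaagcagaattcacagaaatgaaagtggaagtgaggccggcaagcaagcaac
Isg15 (chr4:156200769-156201068, minus strand): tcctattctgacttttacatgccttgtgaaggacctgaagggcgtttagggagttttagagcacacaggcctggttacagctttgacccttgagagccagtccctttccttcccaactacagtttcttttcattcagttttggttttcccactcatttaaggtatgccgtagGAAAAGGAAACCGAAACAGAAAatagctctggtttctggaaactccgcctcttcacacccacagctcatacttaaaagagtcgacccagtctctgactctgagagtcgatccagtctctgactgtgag
Igtp (chr11:58199306-58199605, plus strand): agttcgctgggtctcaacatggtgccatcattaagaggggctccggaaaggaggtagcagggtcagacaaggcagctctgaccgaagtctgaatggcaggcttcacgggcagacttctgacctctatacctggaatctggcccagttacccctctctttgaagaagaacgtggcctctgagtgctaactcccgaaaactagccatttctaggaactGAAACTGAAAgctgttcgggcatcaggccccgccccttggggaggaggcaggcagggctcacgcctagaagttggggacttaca
In Ifit3 the cores begin 156 and 122 bases before the start of the gene. In Oas1a they overlap, at 20 and 14 bases before it. The windows of Irf7, Ifit2, Cxcl9 and Ifi35 hold no core.

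At day 3, doxorubicin was followed by higher signals of many of these genes. In KO mice, 25 of the 43 rose and 0 fell, where 5.66% of all 65956 clusters rose and 3.68% fell. In WT mice, 10 rose and 1 (Irf1) fell, where 2.6% of all clusters rose and 2.13% fell. The median difference over the 43 genes was 0.91 in KO mice (all clusters: -0.04) and 0.46 in WT mice (all clusters: 0.00). Signals of KO-Dox3 mice lay above those of all KO-NaCl3 mice for 22 genes, a pattern that 4.9% of all clusters showed, and those of WT-Dox3 mice above those of all WT-NaCl3 mice for 3 genes (2.15% of all clusters), namely Ifit3, Oas2 and Mx1. Of the 25 genes that rose in KO mice, 9 also rose in WT mice (36% of the 25 and 90% of the 10): Irf7, Dhx58, Ifit2, Ifit3, Oas1a, Oas2, Mx1, Mx2 and Trim30a. Tests were moderated linear models in limma over all 8 groups, with Benjamini-Hochberg adjusted p-values (over every cluster) and a threshold of 0.05. RNA of a whole piece of tissue cannot tell more RNA per cell apart from more cells that carry it.

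The mean over the 43 genes shows where the groups lay. It was 8.87, 8.47, 8.83, 8.78 and 8.83 in KO-Dox3 mice, against 7.44, 7.37, 8.21, 7.99 and 7.87 in KO-NaCl3 mice. In WT-Dox3 mice it was 8.89, 8.5, 8.08, 9.0 and 9.10, against 7.94, 8.85, 8.85, 8.48 and 7.82 in WT-NaCl3 mice. The doxorubicin groups lay close together (8.75 ± 0.16 in KO-Dox3 mice and 8.71 ± 0.42 in WT-Dox3 mice, SD, n = 5 each), while the WT-NaCl3 mice (8.39 ± 0.49) reached higher than the KO-NaCl3 mice (7.78 ± 0.36) and overlapped with the WT-Dox3 mice. At day 7 all mice lay between 7.10 and 8.37, with doxorubicin and saline mice overlapping in both genotypes.

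**Figure D1:**
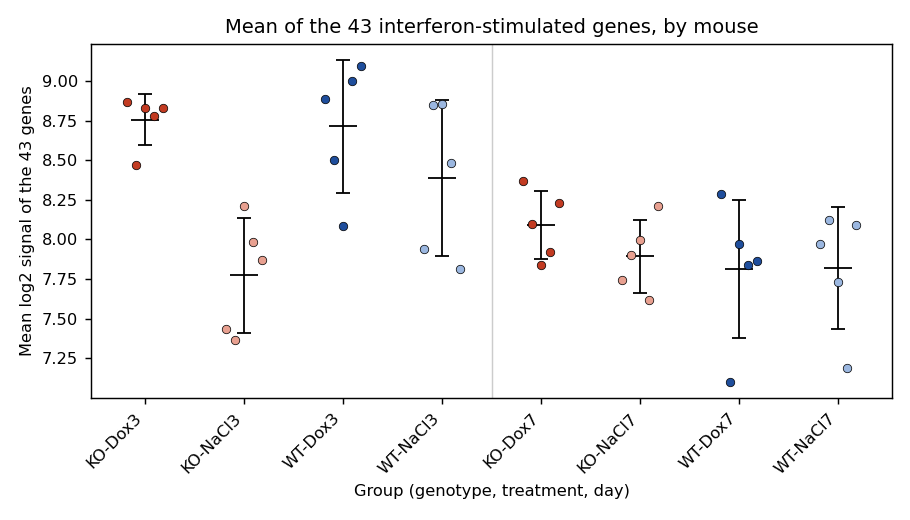
Mean log2 signal of the 43 interferon-stimulated genes in each mouse, by group on the horizontal axis, with the group mean (bar) and SD (n = 5 mice). KO-Dox3 mice lie between 8.47 and 8.87, above every KO-NaCl3 mouse (7.37 to 8.21), and the WT-NaCl3 mice spread from 7.82 to 8.85.

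Of the 4 signalling factors, 2 rose in KO mice at day 3, and 1 rose and 1 fell in WT mice. Irf7, the transcription factor that amplifies the production of type I interferon and is itself an ISG, had 11.10, 9.98, 10.33, 10.82 and 10.80 in KO-Dox3 mice, against 8.48, 8.97, 9.05, 9.46 and 9.06 in KO-NaCl3 mice. In WT-Dox3 mice it had 9.99, 10.09, 9.80, 10.89 and 11.08, against 9.24, 9.64, 9.83, 9.34 and 8.91 in WT-NaCl3 mice. All KO-Dox3 mice lay above all KO-NaCl3 mice, while the lowest WT-Dox3 mouse lay just under the highest WT-NaCl3 mouse. The difference was 1.60 ± 0.24 (adjusted p = 1.23e-05) in KO mice, a 3.04-fold rise, and 0.98 ± 0.24 (adjusted p = 0.0117) in WT mice, with the standard error after each difference. Stat2, which carries the transactivating part of the ISRE-binding complex, rose in KO mice (0.78 ± 0.24, adjusted p = 0.0302), with a difference of 0.14 in WT mice that did not pass, and the call was lost without any of 5 of the 10 KO mice compared. Its partner Irf9 did not pass the test in either genotype (0.44 in KO mice and 0.42 in WT mice).

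Irf1, a factor that answers to Ifng and to inflammation, went the other way. It had 9.61, 9.05, 9.41, 9.73 and 10.03 in WT-Dox3 mice, against 10.34, 11.24, 10.46, 10.81 and 9.76 in WT-NaCl3 mice. In KO-Dox3 mice it had 9.77, 9.06, 9.65, 9.14 and 9.58, against 9.34, 9.54, 10.33, 10.97 and 10.46 in KO-NaCl3 mice. Doxorubicin mice were mostly the lower ones, with 1 WT-NaCl3 mouse and 2 KO-NaCl3 mice within their range. Irf1 fell by 0.96 in WT mice (adjusted p = 0.0408), and the call was lost when any of 8 of the 10 mice of this comparison was left out. In KO mice the difference was -0.69 ± 0.28 (adjusted p = 0.142).

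The sensors of viral nucleic acid gave a mixed picture. Dhx58 (LGP2), a helicase that modulates the RNA sensors Ddx58 (RIG-I) and Ifih1 (MDA5), had 7.10, 6.88, 7.16, 7.30 and 7.14 in KO-Dox3 mice, against 6.00, 5.96, 6.34, 6.20 and 6.16 in KO-NaCl3 mice. WT-Dox3 mice had 7.01, 6.91, 6.46, 7.29 and 7.17, against 5.97, 6.42, 6.98, 6.42 and 6.14 in WT-NaCl3 mice. It rose in both genotypes, by 0.98 ± 0.15 in KO mice and 0.58 ± 0.15 in WT mice, from saline signals that lay within background, with 2 WT-Dox3 mice (6.91 and 6.46) inside the range of the WT-NaCl3 mice. Ifih1 rose in KO mice (0.70 ± 0.20, adjusted p = 0.017), against a difference of 0.22 in WT mice that did not pass the test. Ddx58 did not pass the test (0.45 ± 0.15, adjusted p = 0.0517 in KO mice and 0.06 in WT mice).

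Zbp1, a sensor of left-handed nucleic acid that triggers cell death, varied widely between mice. It had 9.93, 8.69, 8.83, 9.46 and 9.05 in KO-Dox3 mice, against 6.93, 6.95, 9.56, 7.70 and 8.44 in KO-NaCl3 mice, and 9.31, 8.51, 8.05, 9.32 and 10.66 in WT-Dox3 mice, against 8.89, 11.01, 10.22, 9.43 and 8.19 in WT-NaCl3 mice. The groups overlapped in both genotypes, and the differences of 1.28 ± 0.59 in KO mice and -0.38 ± 0.59 in WT mice did not pass the test. Its values at day 7 are given with that day.

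The antiviral effectors held most of the genes that rose, with 11 of 14 in KO mice and 6 of 14 in WT mice. Oas2, an enzyme that makes the oligoadenylates that activate RNase L, had 7.76, 7.31, 7.51, 7.93 and 8.65 in KO-Dox3 mice, against 5.62, 5.61, 5.98, 5.89 and 5.66 in KO-NaCl3 mice. In WT-Dox3 mice it had 8.25, 7.88, 6.65, 7.95 and 8.23, against 5.78, 6.16, 6.34, 5.84 and 5.68 in WT-NaCl3 mice. Every doxorubicin mouse lay above every saline mouse of its genotype, with mouse 192 of WT-Dox3 lowest among them. Oas2 rose by 2.08 ± 0.25 (adjusted p = 1.82e-07) in KO mice and 1.83 ± 0.25 (adjusted p = 8.75e-06) in WT mice, that is 4.23-fold and 3.56-fold, the largest rise of the 43 genes in WT mice. Oas1a rose in both genotypes (1.75 in KO mice and 0.97 in WT mice), and Oas3 (1.25) and Oasl2 (1.70) rose in KO mice and did not pass in WT mice (0.54 and 0.75). The probes of Oas1a may also take up RNA of its near-identical copy Oas1g, which moved alike (1.63 in KO mice and 1.02 in WT mice).

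Ifit3, of the family of tetratricopeptide proteins that bind foreign RNA and stop its translation, had 8.09, 8.49, 9.22, 7.98 and 8.15 in KO-Dox3 mice, against 6.51, 6.48, 6.85, 6.98 and 6.48 in KO-NaCl3 mice. WT-Dox3 mice had 8.82, 8.67, 7.56, 8.36 and 7.98, against 6.92, 6.98, 7.54, 7.50 and 6.58 in WT-NaCl3 mice. No doxorubicin mouse fell into the saline range of its genotype. Ifit3 rose by 1.73 ± 0.23 (adjusted p = 1.47e-06) in KO mice and by 1.17 ± 0.23 (adjusted p = 0.00117) in WT mice, and its signal may include that of its near copy Ifit3b. Ifit2 rose by 1.16 in KO mice and 0.64 in WT mice. Ifit1 had the largest rise of the 43 genes in KO mice, 7.31-fold (2.87 ± 0.47, adjusted p = 4.33e-05), with 11.08, 9.39, 10.71, 11.17 and 9.83 in KO-Dox3 mice, against 6.93, 6.32, 8.24, 8.86 and 7.48 in KO-NaCl3 mice. In WT-Dox3 mice Ifit1 had 9.44, 9.34, 8.87, 10.85 and 9.90, against 8.05, 9.16, 9.70, 8.87 and 7.62 in WT-NaCl3 mice, where the groups overlapped and the difference of 1.0 ± 0.47 did not pass the test.

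The Mx proteins are GTPases that trap viral particles, and the Mx1 gene of most inbred laboratory mice is known to carry a defect. Mx1 had 5.54, 5.65, 5.83, 5.57 and 5.66 in KO-Dox3 mice, against 4.99, 5.06, 5.05, 5.24 and 4.94 in KO-NaCl3 mice, and 5.41, 5.43, 5.49, 5.51 and 5.72 in WT-Dox3 mice, against 4.83, 4.95, 5.02, 4.93 and 5.19 in WT-NaCl3 mice. Doxorubicin and saline mice did not overlap in either genotype. It rose by 0.59 ± 0.09 in KO mice and 0.53 ± 0.09 in WT mice, within the range of background, and its within-group SD of 0.14 was the smallest of the 43 genes. Mx2 had 6.22, 5.79, 6.08, 6.34 and 6.01 in KO-Dox3 mice, against 5.15, 5.08, 5.38, 5.25 and 5.04 in KO-NaCl3 mice, and 5.94, 5.91, 5.60, 6.03 and 5.77 in WT-Dox3 mice, against 5.11, 5.50, 5.61, 5.43 and 5.31 in WT-NaCl3 mice. It rose by 0.91 ± 0.10 (adjusted p = 1.07e-07) in KO mice, where the groups were apart, and by 0.46 ± 0.10 (adjusted p = 0.00545) in WT mice, where 1 doxorubicin mouse and 1 saline mouse overlapped.

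Among the other effectors, some neighbours on the chromosome had unlike differences, which were not tested against each other. Other neighbours, such as Ifit2 and Ifit3 or Mx1 and Mx2, rose together in both genotypes. Rsad2 (viperin), an enzyme that makes a chain-terminating nucleotide, rose in KO mice (1.87 ± 0.31, adjusted p = 4.03e-05), against a difference of 0.95 ± 0.31 (adjusted p = 0.0688) in WT mice that did not pass the test. Cmpk2, a nucleotide kinase whose gene lies 12751 bases from Rsad2 on chromosome 12 on the opposite strand, differed by 0.10 ± 0.20 in KO mice and -0.39 ± 0.20 in WT mice. Likewise Oasl2 and Oasl1 lie 10994 bases apart on chromosome 5, and Oasl1 differed by only 0.11 in KO mice. Samd9l, an inhibitor of translation, rose in KO mice (0.63 ± 0.20, adjusted p = 0.0367), a call that was lost without any of 7 of the 10 mice compared. Bst2 (tetherin), which holds budding virus at the cell surface and also marks plasmacytoid dendritic cells, lay higher in every KO-Dox3 mouse than in any KO-NaCl3 mouse but did not pass the test (1.20 ± 0.41, adjusted p = 0.0585 in KO mice and 1.05 in WT mice).

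**Figure D2:**
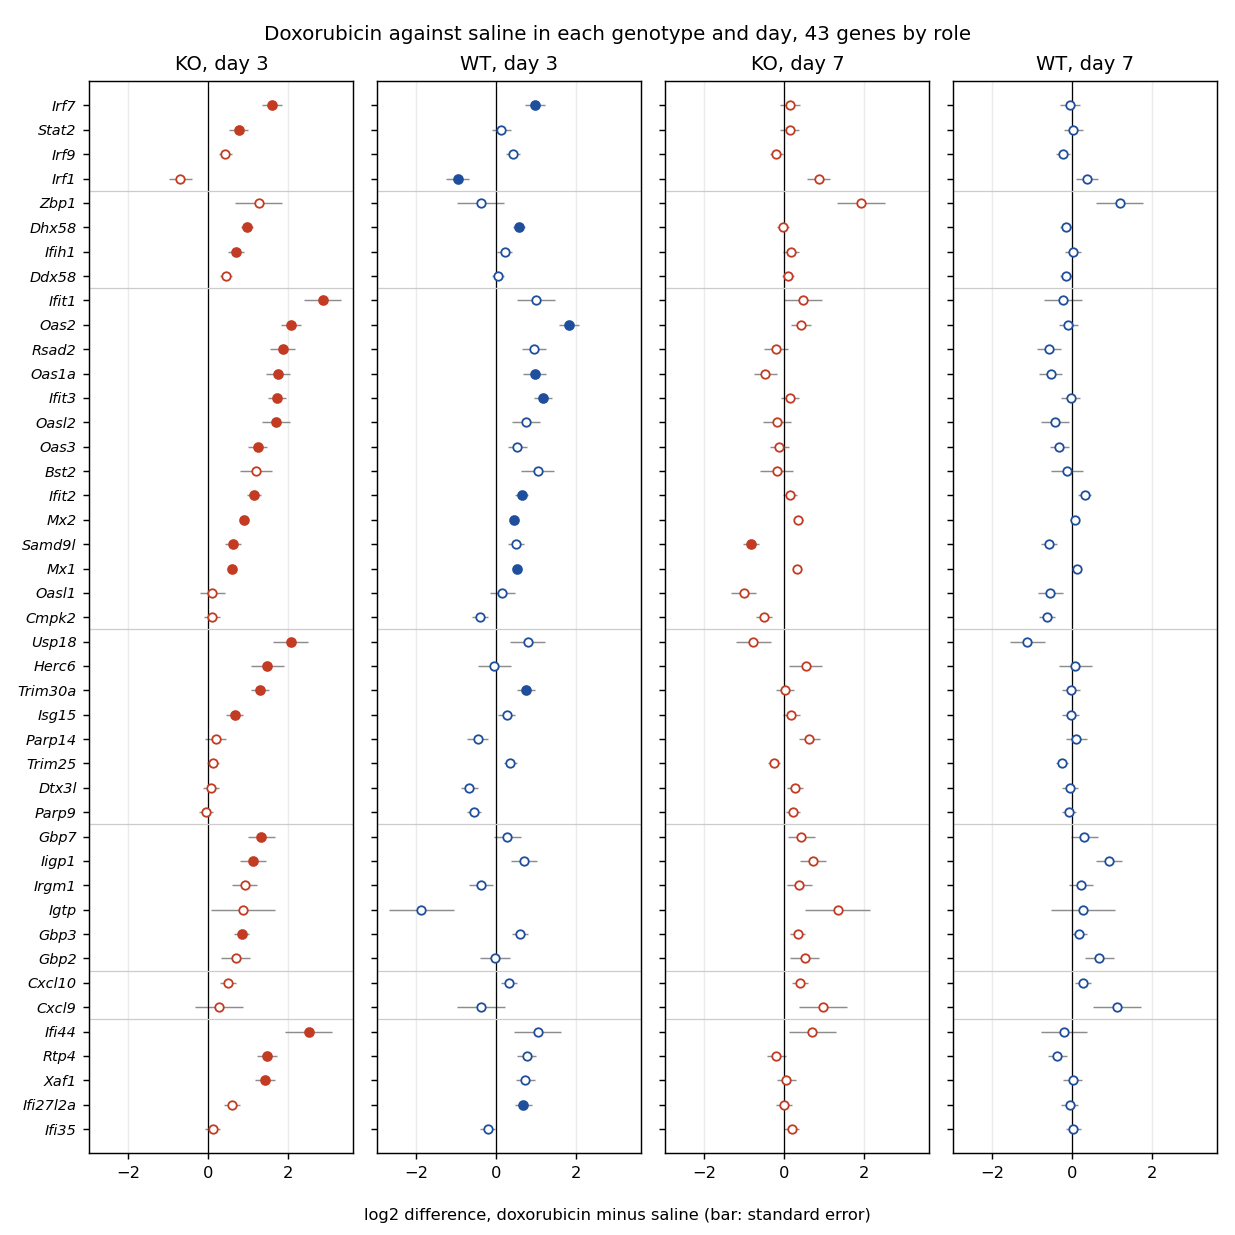
Difference on the log2 scale between doxorubicin and saline mice for each of the 43 genes, with KO mice left of WT mice on each day and the genes grouped by role (signalling factors, sensors, effectors, modifiers, GTPases, chemokines and others, from top to bottom). Points are estimates with their standard errors from the limma model (5 mice per group), and filled points passed an adjusted p of 0.05. The filled points number 25 and 11 at day 3 and 1 and 0 at day 7.

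Of the genes of the ISG15 system and of ubiquitin or ADP-ribose transfer, 4 of 8 rose in KO mice and 1 in WT mice. Usp18, which removes ISG15 from proteins and damps the interferon receptor, had 10.11, 9.39, 10.19, 11.34 and 10.08 in KO-Dox3 mice, against 7.67, 7.20, 8.74, 8.24 and 8.89 in KO-NaCl3 mice. In WT-Dox3 mice it had 10.27, 9.19, 8.57, 10.76 and 11.09, against 7.98, 10.05, 9.59, 9.31 and 8.99 in WT-NaCl3 mice. The WT mice overlapped, the highest WT-NaCl3 mouse lying above 2 of the WT-Dox3 mice. Usp18 rose by 2.07 ± 0.44 (adjusted p = 0.00116) in KO mice, 4.21-fold, and differed by 0.79 ± 0.44 (adjusted p = 0.419) in WT mice. Trim30a, a ubiquitin ligase family member that restrains inflammatory signalling in mice, had 9.12, 8.70, 9.27, 9.22 and 9.28 in KO-Dox3 mice, against 7.45, 7.48, 8.34, 7.97 and 7.87 in KO-NaCl3 mice, and 9.25, 9.07, 8.62, 9.36 and 9.62 in WT-Dox3 mice, against 7.89, 8.47, 9.29, 8.36 and 8.09 in WT-NaCl3 mice. It rose in both genotypes (1.30 in KO mice and 0.76 ± 0.22, adjusted p = 0.0395 in WT mice), with saline mouse 46 alone within the range of the WT-Dox3 mice. The call in WT mice was lost without any of 7 of the 10 mice compared and in 5 settings.

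Herc6, the main ligase for ISG15 in mice, had 10.41, 9.67, 10.17, 10.81 and 9.72 in KO-Dox3 mice, against 8.09, 8.03, 9.87, 8.76 and 8.60 in KO-NaCl3 mice. WT-Dox3 mice had 9.80, 9.58, 9.22, 10.63 and 10.61, against 9.03, 10.77, 10.93, 9.97 and 9.37 in WT-NaCl3 mice. It rose in KO mice (1.49 ± 0.41, adjusted p = 0.0152), with a WT difference of -0.05 ± 0.41 that did not pass. A KO-NaCl3 mouse (9.87) lay among the KO-Dox3 mice, and the 2 highest values in WT mice were those of saline mice. Isg15 itself rose in KO mice (0.67 ± 0.21, adjusted p = 0.0402), with KO mice of day 3 at 5.02 to 6.31, within background. That call was lost without any of 8 of the 10 mice compared and in 2 settings. Trim25, the ligase of RIG-I, and the trio Parp14, Dtx3l and Parp9, which act in ADP-ribosylation and share a stretch of chromosome 16, did not pass in either genotype. In WT mice the trio differed by -0.46, -0.67 and -0.56 (adjusted p = 0.441, 0.0557 and 0.0587). The clusters of Dtx3l and Parp9 share 682 bases on opposite strands.

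The interferon-inducible GTPases, which attack the membranes around intracellular microbes, rose for 3 of 6 members in KO mice and 0 of 6 in WT mice. Gbp3 had 7.05, 7.06, 7.26, 6.53 and 6.90 in KO-Dox3 mice, against 6.14, 6.11, 6.24, 5.96 and 6.11 in KO-NaCl3 mice, and 7.62, 7.22, 6.86, 6.89 and 7.42 in WT-Dox3 mice, against 6.31, 6.94, 6.69, 6.79 and 6.25 in WT-NaCl3 mice. It rose by 0.85 ± 0.19 (adjusted p = 0.00234) in KO mice, in which the groups were apart, and differed by 0.61 ± 0.19 (adjusted p = 0.0636) in WT mice. Iigp1 had 7.58, 7.38, 7.56, 6.52 and 7.00 in KO-Dox3 mice, against 5.72, 5.90, 6.15, 6.16 and 6.47 in KO-NaCl3 mice, and 7.57, 7.27, 7.32, 7.48 and 8.37 in WT-Dox3 mice, against 6.67, 7.64, 6.78, 6.88 and 6.52 in WT-NaCl3 mice. It rose by 1.13 ± 0.32 (adjusted p = 0.0175) in KO mice, while the difference in WT mice was 0.70 ± 0.32 (adjusted p = 0.273). Gbp7 rose in KO mice (1.33 ± 0.33, adjusted p = 0.00623).

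Igtp was the most variable of the 43 genes, with a within-group SD of 1.34. It had 9.67, 8.84, 10.70, 9.41 and 10.03 in KO-Dox3 mice, against 7.15, 6.99, 10.09, 10.42 and 9.63 in KO-NaCl3 mice. In WT-Dox3 mice it had 9.95, 9.46, 8.36, 9.94 and 9.96, against 10.05, 14.05, 12.71, 10.82 and 9.36 in WT-NaCl3 mice. The highest value of all 40 mice, 14.05, was that of a saline mouse, mouse 44 of WT-NaCl3, and mouse 46 of that group followed. Differences of 0.87 ± 0.80 in KO mice and -1.86 ± 0.80 in WT mice did not pass the test.

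The chemokines of this set, Cxcl9 and Cxcl10, recruit T and NK cells through the receptor Cxcr3. Cxcl9 had 8.58, 7.86, 8.26, 5.84 and 8.89 in KO-Dox3 mice, against 6.97, 7.17, 8.31, 7.31 and 8.24 in KO-NaCl3 mice, and 9.24, 7.78, 7.34, 8.89 and 10.07 in WT-Dox3 mice, against 8.94, 9.98, 8.69, 9.48 and 8.08 in WT-NaCl3 mice. Cxcl10 had 5.09, 4.80, 4.79, 4.38 and 4.75 in KO-Dox3 mice, against 4.29, 4.21, 4.41, 4.14 and 4.25 in KO-NaCl3 mice, and 5.23, 4.45, 4.46, 5.06 and 5.53 in WT-Dox3 mice, against 4.40, 5.11, 4.46, 4.78 and 4.30 in WT-NaCl3 mice. Groups overlapped for both genes, and neither passed the test (0.29 ± 0.60 and 0.50 ± 0.20 in KO mice). Cxcl10 lay under the highest background signal in every mouse.

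Of the 5 other interferon-induced proteins, 3 rose in KO mice and 1 in WT mice. Rtp4, a chaperone of receptors that also restrains some RNA viruses, had 7.44, 6.73, 7.44, 7.74 and 7.61 in KO-Dox3 mice, against 5.77, 5.56, 6.44, 6.06 and 5.72 in KO-NaCl3 mice, and 7.29, 6.86, 6.83, 7.81 and 7.65 in WT-Dox3 mice, against 6.26, 6.81, 7.12, 6.26 and 6.12 in WT-NaCl3 mice. It rose by 1.48 ± 0.24 (adjusted p = 3.53e-05) in KO mice, while the difference in WT mice was 0.77 ± 0.24 (adjusted p = 0.0563). Xaf1, which binds an inhibitor of caspases, had 8.55, 7.83, 8.71, 8.68 and 8.23 in KO-Dox3 mice, against 6.37, 6.64, 7.38, 7.26 and 7.21 in KO-NaCl3 mice, and 8.38, 7.98, 7.65, 8.72 and 8.92 in WT-Dox3 mice, against 7.31, 7.96, 7.74, 7.72 and 7.22 in WT-NaCl3 mice. It rose by 1.43 ± 0.24 (adjusted p = 5.63e-05) in KO mice, while the difference in WT mice was 0.74 ± 0.24 (adjusted p = 0.0721). In both genes the KO groups were apart and the WT groups overlapped. Ifi44 rose 5.75-fold in KO mice (2.52 ± 0.58, adjusted p = 0.0028), with 1 KO-NaCl3 mouse, mouse 220, at 8.48 and the other 4 between 5.60 and 6.24. Ifi27l2a rose in WT mice (0.69 ± 0.21, adjusted p = 0.0432) and differed by 0.61 ± 0.21 (adjusted p = 0.0553) in KO mice. The call in WT mice was lost without any of 7 of the 10 mice compared and in 6 settings. Ifi35 differed by 0.12 in KO mice and -0.21 in WT mice.

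**Figure D3:**
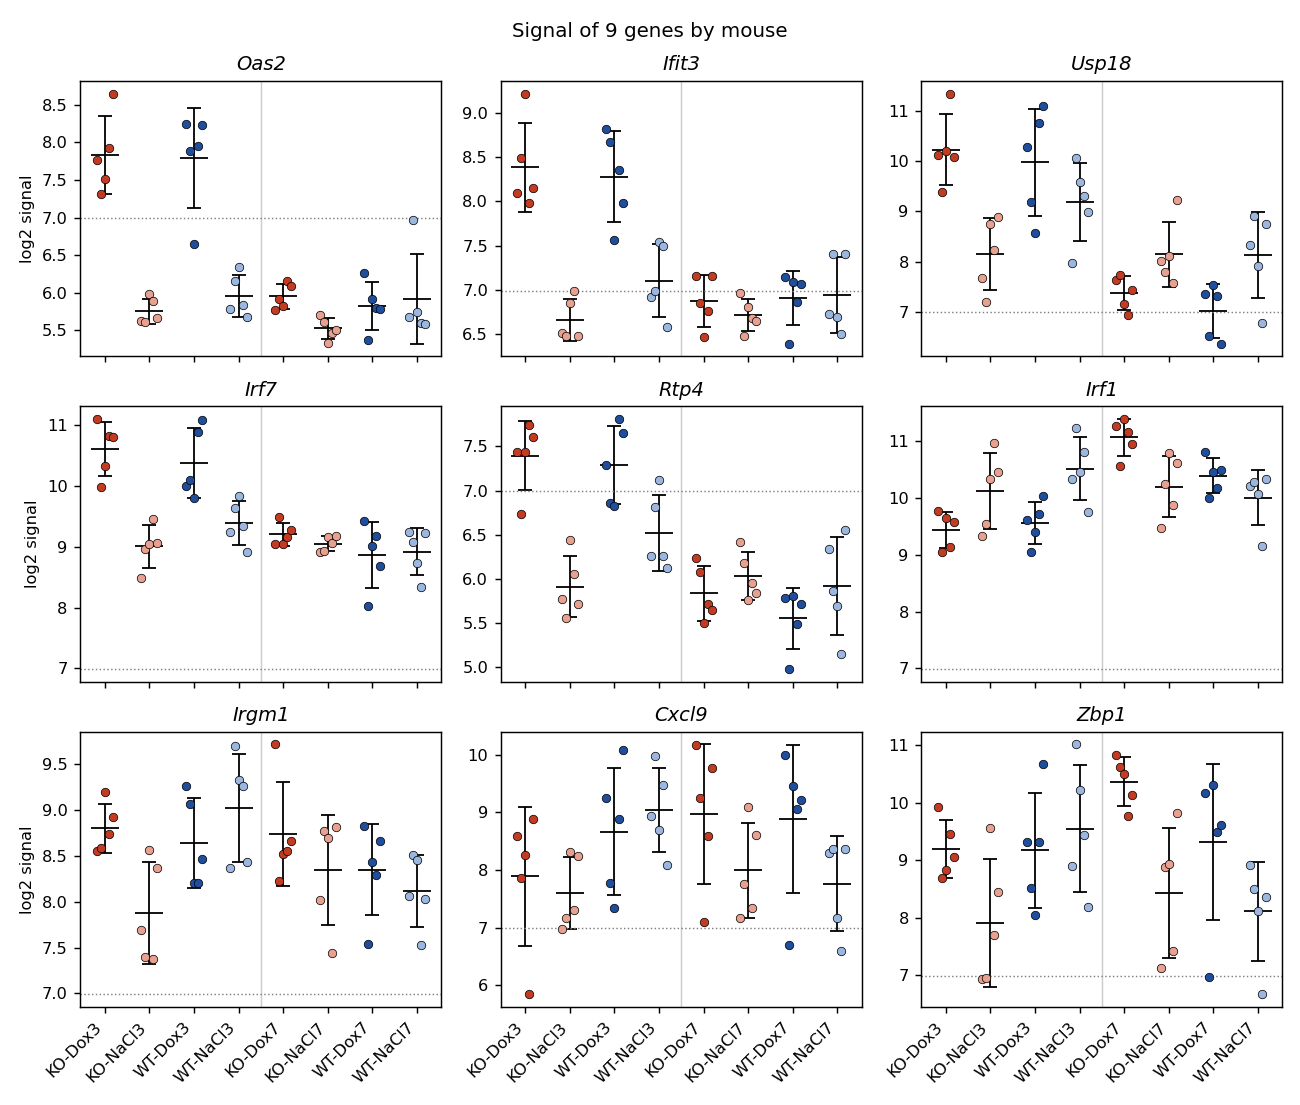
Log2 signal of 9 of the genes in each mouse, by group, with the group mean and SD (n = 5 mice). The dotted line is the highest background probe set (6.99). Oas2 and Ifit3 are apart between doxorubicin and saline mice of both genotypes at day 3, while Irf1, Irgm1, Cxcl9 and Zbp1 overlap.

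By day 7 the rise was no longer detected. In KO mice 0 of the 43 genes rose and 1 fell, where 0.318% of all clusters rose and 0.602% fell, and in WT mice 0 rose and 0 fell, where 0.0106% rose and 0.00758% fell. At an unadjusted p under 0.05, 9 genes passed in KO mice (12.1% of all clusters) and 4 in WT mice (8.51% of all clusters). Without mouse 102 of WT-Dox7 and mouse 206 of WT-NaCl7, both left out after the values were seen, the count in WT mice was 10 (7.76% of all clusters). Each had the lowest mean over the 43 genes in its group (7.10 and 7.19), so that leaving it out had to raise that group's mean. Samd9l fell by 0.82 in KO mice (adjusted p = 0.0341), with 7.72, 8.21, 7.36, 8.06 and 8.41 in KO-Dox7 mice, against 9.16, 9.01, 8.38, 8.65 and 8.64 in KO-NaCl7 mice, where 1 doxorubicin mouse and 1 saline mouse overlapped. In WT mice it differed by -0.58 ± 0.20 (adjusted p = 0.347), with all WT-Dox7 mice (7.95 to 8.45) under all WT-NaCl7 mice (8.52 to 9.0). Samd9l alone of the 43 genes was apart in WT mice, as 0.456% of all clusters were in that direction. In KO mice Oas2 and Mx2 were higher in every KO-Dox7 mouse than in any KO-NaCl7 mouse (1.68% of all clusters), and Oasl1 and Cmpk2 lower (1.68%), without passing the test. The Samd9l call in KO mice was lost without any of 6 of the 10 mice compared.

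The change of the doxorubicin effect between the days was tested directly. In KO mice it was lower at day 7 than at day 3 for 16 of the 43 genes (3.37% of all clusters) and higher for 1 (1.55%). The 16 were Irf7, Dhx58, Ifit1, Ifit2, Ifit3, Oas1a, Oas2, Oas3, Oasl2, Mx2, Rsad2, Samd9l, Usp18, Trim30a, Rtp4 and Xaf1. The largest was Usp18 (-2.84 ± 0.62, adjusted p = 0.0043), which had 6.93 to 7.73 in KO-Dox7 mice, against 7.57 to 9.23 in KO-NaCl7 mice. In WT mice the effect was lower at day 7 for 2 genes (0.397% of all clusters), Oas2 (-1.92 ± 0.35, adjusted p = 0.00338) and Samd9l (-1.09 ± 0.28, adjusted p = 0.0491), and higher for 0 (0.444%). The Samd9l call was lost in 28 of the 40 fits without 1 mouse and in 7 settings. In KO mice that of Ifit1 (-2.39 ± 0.67, adjusted p = 0.0292) was lost without any of 8 mice and in 2 settings.

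The effect on Irf1 in KO mice was higher at day 7 than at day 3 (1.56 ± 0.40, adjusted p = 0.0155), with 11.28, 10.56, 11.39, 11.16 and 10.96 in KO-Dox7 mice, against 9.47, 10.25, 10.79, 9.88 and 10.62 in KO-NaCl7 mice. The difference within day 7 was 0.87 ± 0.28 (adjusted p = 0.15), with 2 saline mice within the range of the doxorubicin mice. In WT mice the change between days was 1.34 ± 0.40 (adjusted p = 0.109). Zbp1 reached its highest values among KO mice at day 7, with 10.82, 10.61, 10.49, 9.76 and 10.13 in KO-Dox7 mice, against 7.13, 8.88, 8.93, 7.42 and 9.81 in KO-NaCl7 mice, and 10.17, 6.97, 10.30, 9.49 and 9.61 in WT-Dox7 mice, against 8.91, 8.5, 8.12, 6.67 and 8.36 in WT-NaCl7 mice. The differences of 1.93 ± 0.59 (adjusted p = 0.12) and 1.20 ± 0.59 (adjusted p = 0.587) did not pass the test, and 1 KO-NaCl7 mouse lay above 1 KO-Dox7 mouse. Mouse 102 of WT-Dox7 lay far below its group in this and other genes.

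The question that the design puts to these genes is whether loss of Sftpd alters their response. At day 3 the test of an interaction between genotype and doxorubicin was passed by 0 of the 43 genes, as by 0% of all clusters, with 12 genes at an unadjusted p under 0.05 (6.49% of all clusters) and a lowest adjusted p of 0.75. For 40 of the 43 genes the doxorubicin difference of KO mice exceeded that of WT mice, while it was the smaller one in 57.3% of all clusters. The median interaction was 0.53 (all clusters: -0.04). The 43 genes varied together from mouse to mouse, so that these are not 40 separate results. The lowest p belonged to Mx2 (0.45 ± 0.15, unadjusted p = 0.00436) and Irgm1 (1.30 ± 0.44, unadjusted p = 0.00528). At day 7, 0 genes passed (0% of all clusters) and 0 had an unadjusted p under 0.05, with the lowest p for Mx2 (0.30 ± 0.15) and Mx1 (0.21 ± 0.13). Mx2 had 5.47, 5.34, 5.47, 5.35 and 5.46 in KO-Dox7 mice, against 4.95, 5.10, 5.08, 4.93 and 5.21 in KO-NaCl7 mice, and 5.38, 4.94, 5.36, 5.23 and 5.42 in WT-Dox7 mice, against 5.32, 5.31, 5.13, 4.97 and 5.27 in WT-NaCl7 mice. Mx1 had 5.07, 5.10, 5.57, 5.23 and 5.13 in KO-Dox7 mice, against 4.72, 4.91, 4.91, 4.79 and 5.08 in KO-NaCl7 mice, and 5.23, 4.95, 5.17, 5.02 and 5.18 in WT-Dox7 mice, against 4.89, 5.16, 5.06, 4.91 and 4.89 in WT-NaCl7 mice. For Mx2 the KO groups were apart and the WT groups overlapped, and for Mx1 both pairs of groups overlapped.

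The interaction is made of 2 comparisons of genotype, one among doxorubicin mice and one among saline mice. After doxorubicin at day 3, KO-Dox3 and WT-Dox3 mice lay close: 0 of the 43 genes passed (0.0106% of all clusters), 1 had an unadjusted p under 0.05 (Mx2, 0.24 ± 0.10, where 8.43% of all clusters did), and the median difference was 0.10. Oas2 differed by 0.04 ± 0.25, Usp18 by 0.25 ± 0.44 and Irf7 by 0.24 ± 0.24. Differences of the size of these standard errors in either direction would not have been called. After saline at day 3, 0 genes passed (0.0258% of all clusters), but 40 of the 43 were lower in KO-NaCl3 than in WT-NaCl3 mice (53.2% of all clusters were lower), with 21 at an unadjusted p under 0.05 (9.5% of all clusters) and a median difference of -0.44 (all clusters: -0.01). Both comparisons enter the interaction, and the same mice enter the doxorubicin comparisons. After doxorubicin at day 7, 0 genes passed (0.00606% of all clusters), and 6 had an unadjusted p under 0.05 (4.26% of all clusters). Of the 43 genes, 37 were higher in KO-Dox7 mice (55.8% of all clusters were lower). Dtx3l and Parp14 were higher in every KO-Dox7 than in any WT-Dox7 mouse, as 0.297% of all clusters were. Without mice 102 and 206, 3 had an unadjusted p under 0.05 (2.63% of all clusters) and 26 were higher in KO-Dox7 mice (50.4% of all clusters were lower).

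The genes with the lowest p after saline at day 3 were Irgm1 and Gbp7. Irgm1, an immunity-related GTPase of autophagy, had 7.69, 7.40, 8.57, 7.38 and 8.37 in KO-NaCl3 mice, against 8.37, 9.70, 9.33, 9.27 and 8.43 in WT-NaCl3 mice. The difference was -1.14 ± 0.31 (adjusted p = 0.293). In KO-Dox3 mice Irgm1 had 8.55, 8.59, 9.20, 8.74 and 8.93, and in WT-Dox3 mice 9.26, 9.07, 8.21, 8.21 and 8.47, so that these groups overlapped. Gbp7 had 8.44, 7.71, 8.86, 8.34 and 8.95 in KO-NaCl3 mice, against 8.88, 10.86, 9.61, 10.13 and 8.94 in WT-NaCl3 mice. It differed by -1.22 ± 0.33 (adjusted p = 0.293), and for both genes the groups overlapped at their edges. Only Gbp3 and Iigp1 of the 43 were lower in every KO-NaCl3 mouse than in any WT-NaCl3 mouse, which 0.573% of all clusters were. After saline at day 7, 0 genes passed (0.0773% of all clusters) and 0 had an unadjusted p under 0.05, where 16.7% of all clusters did. The lowest p were those of Oas2 (-0.39 ± 0.25) and Ddx58 (0.24 ± 0.15). Oas2 had 5.71, 5.61, 5.33, 5.47 and 5.51 in KO-NaCl7 mice, against 5.68, 6.97, 5.75, 5.60 and 5.58 in WT-NaCl7 mice, with 1 WT-NaCl7 mouse far above the rest. Ddx58 had 9.13, 9.17, 9.11, 9.13 and 9.29 in KO-NaCl7 mice, against 8.95, 9.05, 8.89, 8.56 and 9.19 in WT-NaCl7 mice, where 1 WT-NaCl7 mouse lay within the range of the KO-NaCl7 mice. Of the 43 genes, 30 were higher and 13 lower in KO-NaCl7 mice (62.7% of all clusters were lower), with a median difference of 0.11. Without mice 102 and 206 this turned to 19 higher and 24 lower (62.3% of all clusters were lower), with a median of -0.023.

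The saline difference was smaller without a pair of WT-NaCl3 mice. Mice 44 and 46 had a mean of 8.85 each over the 43 genes, against 7.82 to 8.48 in the other 3 mice of WT-NaCl3. Without the 2 mice together, 35 of the 43 genes were lower in KO-NaCl3 mice (54.1% of all clusters were lower). Of the 43, 3 had an unadjusted p under 0.05 (6.49% of all clusters), and the median difference was -0.20. The median interaction at day 3 was then 0.34, with 37 genes positive (54.9% of all clusters were negative) and 2 at an unadjusted p under 0.05 (4.2% of all clusters). The doxorubicin comparison in WT mice then had 13 of the 43 genes higher and 0 lower, with a median of 0.61. This alternative was chosen after the values were seen. The 2 mice had the highest means of WT-NaCl3 over these same genes. Leaving them out had to lower that group's mean, so that the direction of these changes followed from the choice. No matching pair of low KO-NaCl3 mice was left out.

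Markers of T and NK cells moved with these values. Of 12 markers listed, 11 were matched, and 5 of them had a mean above the highest background, while the NK cell markers Ncr1 and Klrb1c lay within it. Their mean was 6.28, 6.18, 6.89, 6.53 and 6.67 in KO-NaCl3 mice, against 6.85, 7.58, 7.39, 7.37 and 7.11 in WT-NaCl3 mice. The highest values were those of mice 44 and 46, with mouse 170 just under mouse 46. In that comparison 0 of the 11 passed, and 8 had an unadjusted p under 0.05 (9.5% of all clusters). The median difference was -0.58 (all clusters: -0.01). Gzmb, a granule protease of killer cells, had 7.92, 6.94, 9.02, 8.55 and 8.83 in KO-NaCl3 mice, against 9.10, 11.19, 10.21, 9.96 and 9.0 in WT-NaCl3 mice. The highest KO-NaCl3 mouse lay just above the lowest WT-NaCl3 mouse. The part of these cells in the saline difference was not tested. After doxorubicin at day 3, 10 of the 11 markers were lower in KO-Dox3 than in WT-Dox3 mice (59.7% of all clusters were lower). Of the 11, 0 passed and 5 had an unadjusted p under 0.05 (8.43% of all clusters). Their median difference was -0.40, against 0.10 for the 43 genes. Between doxorubicin and saline mice at day 3, 0 of the 11 markers passed in either genotype, with median differences of 0.08 in KO mice and -0.20 in WT mice, and their mean lay at 6.27 to 6.91 in KO-Dox3 mice, against 6.18 to 6.89 in KO-NaCl3 mice. Their part in the doxorubicin differences was not tested either.

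**Figure D4:**
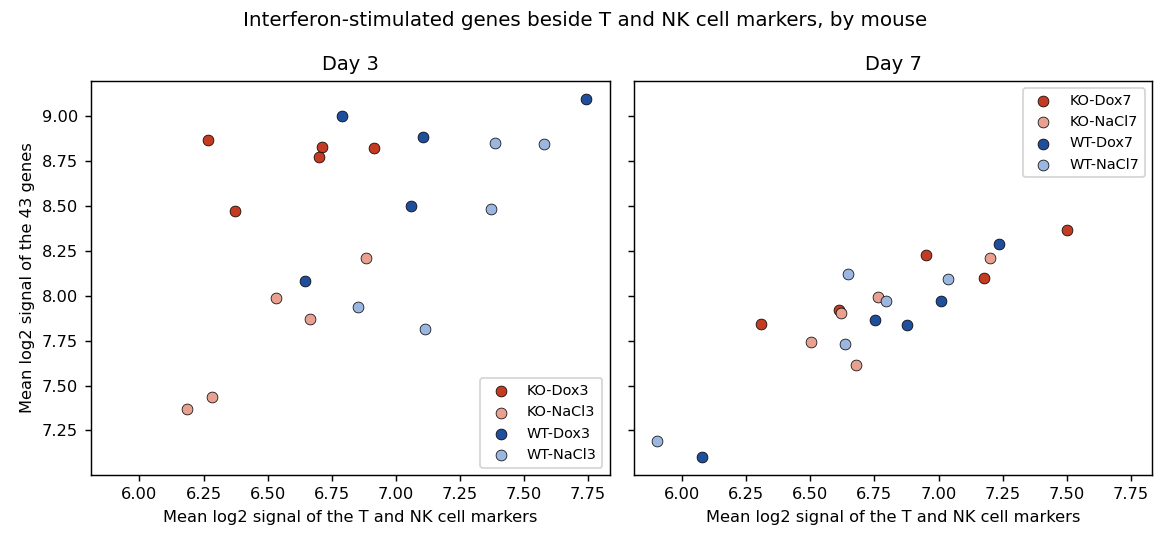
Mean log2 signal of the 43 genes (vertical) against the mean of the 11 T and NK cell markers (horizontal), 1 point per mouse, at day 3 and day 7. At day 3 the KO-Dox3 mice lie above the KO-NaCl3 mice on the vertical axis and overlap with them on the horizontal one. Mice 44 and 46 of WT-NaCl3 have the highest markers of their group (7.58 and 7.39), with mouse 170 just under mouse 46 (7.37).

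Other cell markers also differed at day 3. Of 11 markers of macrophages and monocytes, 3 rose in both genotypes: Cd68 (1.66 in KO mice and 1.40 in WT mice), Mrc1 (1.48 and 1.12 likewise) and Ly6c2 (1.45 and 1.43 likewise). The mean of this list was 8.58 to 9.14 in KO-Dox3 mice, against 7.35 to 8.68 in KO-NaCl3 mice, and 8.80 to 9.90 in WT-Dox3 mice, against 8.22 to 8.82 in WT-NaCl3 mice. Of 7 neutrophil markers, 5 rose in WT mice and 0 in KO mice, all with means under the highest background. The differences were positive for 7 in KO mice (median 0.55) and for 6 in WT mice (median 0.85). The interaction with genotype at day 3 was passed by 0 of them. Of 7 markers of plasmacytoid dendritic cells, which make much type I interferon, 0 rose and 1 fell in each genotype, Siglech in KO mice (-0.50) and Irf8 in WT mice (-0.79), with 3 positive and 4 negative differences in both. The largest positive one was that of Bst2, and the defining marker Siglech lay within background in all mice. Of 6 endothelial markers, 1 rose in KO mice (Vwf, 0.35) and 4 in WT mice (Pecam1, Cdh5, Tek and Vwf). All 6 differences were positive in both genotypes, with medians of 0.39 in KO mice and 0.55 in WT mice. Tek and Vwf had means under the highest background. Of 9 enterocyte markers, 2 fell in KO mice (Lct, -1.45, and Alpi, -0.62) and 1 in WT mice (Vil1, -0.60). Of 8 smooth muscle markers, 6 fell in KO mice and 1 in WT mice. Their differences were negative for 8 in KO mice (median -1.12) and for 7 in WT mice (median -0.31). Of the endothelial, enterocyte and smooth muscle markers, 0 passed the interaction with genotype at day 3. The part of the cells of all these lists in the rise of the 43 genes was not tested.

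Upstream of these genes, the interferon genes had mean signals within the range of background. Of 21 interferon genes listed, 18 were matched, all with means under the highest background, and 0 rose or fell in any of the 4 doxorubicin comparisons. Ifnb1 had 3.51 to 4.30 in KO-Dox3 mice, against 3.49 to 4.49 in KO-NaCl3 mice, and Ifng had 3.34 to 3.45 in KO-Dox3 mice, against 3.29 to 3.78 in KO-NaCl3 mice. A signal within background does not tell a low level of an RNA from none.

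The receptor chains had means of 7.06 (Ifnlr1) to 13.65 (Ifngr2), and those that changed did so in both directions. Ifnar2, the signalling chain of the type I receptor, rose in both genotypes (0.80 ± 0.16, adjusted p = 3.66e-04 in KO mice and 1.0 ± 0.16, adjusted p = 7.11e-05 in WT mice), with 9.35, 8.73, 8.83, 9.52 and 8.96 in KO-Dox3 mice, against 8.36, 7.97, 8.21, 8.58 and 8.25 in KO-NaCl3 mice. WT-Dox3 mice had 9.03, 8.92, 9.12, 9.54 and 9.81, against 8.20, 8.47, 8.16, 8.26 and 8.33 in WT-NaCl3 mice, again with the groups apart. Ifngr2, a chain of the receptor of Ifng, fell in both genotypes, by 0.97 in KO mice (adjusted p = 5.04e-07) and by 0.40 in WT mice (adjusted p = 0.0487). It had 13.08, 13.12, 13.06, 13.23 and 13.21 in KO-Dox3 mice, against 14.10, 14.06, 13.93, 14.22 and 14.22 in KO-NaCl3 mice. Il10rb, the shared chain of the type III receptor, fell by 0.28 in KO mice, and Ifnar1, Ifngr1 and Ifnlr1 did not pass in either genotype at day 3.

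Downstream of the receptors, Jak2 and Tyk2 fell in KO mice at day 3 (-0.78 and -0.31), and 0 of the 5 JAK-STAT genes passed in WT mice. The interaction with genotype at day 3 was passed by 0 of the 5.

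Among 17 sensors and adaptors that lead to interferon, 5 rose and 3 fell in KO mice and 0 rose and 4 fell in WT mice at day 3. Differences were positive for 10 of the 17 in KO mice and for 8 in WT mice, where the highest was 0.95. The interaction with genotype at day 3 was passed by 0 of the 17, as by 0% of all clusters. The risers in KO mice were the DNA sensor Mb21d1 (cGAS, 0.85) and its adaptor Tmem173 (STING, 1.48), the endosomal RNA receptor Tlr7 (0.76), the Toll-like receptor adaptor Myd88 (0.80) and Rnaseh2b (0.65), a subunit of an enzyme that removes RNA from DNA. Mavs, the adaptor of RIG-I and MDA5, fell in both genotypes (-0.80 in KO mice and -1.13 in WT mice), as did the RNA receptor Tlr3 (-0.53 and -0.72) and its adaptor Ticam1 (-0.42 and -0.62). Irf8 fell in WT mice (-0.79). Of 6 inhibitors of the pathway, Socs1 fell in both genotypes (-0.35 and -0.41). Mb21d1, Tlr7, Ticam1 and Socs1 had means under the highest background.

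Of 47 further ISGs matched outside the 43, 18 rose and 0 fell in KO mice at day 3, with a median difference of 0.35, and 9 rose and 4 fell in WT mice, with a median of 0.13. The 9 that rose in WT mice, which all rose in KO mice too, were Oas1b, Oas1g, Ifi204 (2.51 in KO mice and 2.13 in WT mice), Ifitm1, Ifitm3 (2.19 and 1.71 likewise), Slfn1, Slfn5, Slfn8 and Ms4a4c. Among these, Oas1b, Ifitm1, Slfn1, Slfn5 and Slfn8 had means under the highest background. Ifi204 belongs to a family of DNA-binding proteins, and Ifitm3 blocks the entry of virus through endosomes. The 4 that fell in WT mice were Psmb8 (-1.39), Psmb9 (-1.0) and Psmb10 (-1.57), the subunits of the immunoproteasome, which answer to Ifng, and Nmi (-0.73). In KO mice these 4 did not pass, at -0.63, -0.50, -0.95 and -0.33 in that order. At day 7 the pathway lists held 2 genes that rose in KO mice, the kinase Tbk1 (0.67) and the RNA helicase Mov10 (1.72), and 1 that fell, the phosphatase Ptpn6 (-1.07), and 0 in WT mice.

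Within groups, the 43 genes varied together from mouse to mouse. Over 903 pairs of genes, the correlation of their deviations from the group means (40 mice, r across arrays that share depth and tissue makeup) had a median of 0.54, a range of -0.28 to 0.91, and 890 positive pairs. The most alike were Oasl2 and Herc6 (0.91), Oasl2 and Trim30a (0.90) and Gbp2 and Gbp7 (0.89), the last a pair from a cluster of GTPase genes on chromosome 3. Other sets of genes were not correlated in this way, so that these values have no comparison beside them. Correlations of single genes with the mean of the T and NK markers, over the same 40 mice, lay between 0.11 (Trim25) and 0.77 (Gbp7). With the mean of the macrophage and monocyte markers they lay between -0.39 (Mx1) and 0.65 (Cxcl9). Within-group SDs lay between 0.14 and 1.34 with a median of 0.40.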

How the data were processed

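RNA of the jejunum of 40 mice was hybridised to Affymetrix arrays of the type Mouse Transcriptome Array 1.0, each mouse on its own. The deposited values are log2 signals per probe set, already normalized by the authors. For this the study's methods name normexp and quantile steps of limma. The submitters' processing notes name RMA, Expression Console and Transcriptome Analysis Console 3.0, and the values do not settle which was used. Of 72688 probe sets, 6732 controls were left out and 65956 clusters tested. For each gene the brightest cluster with that symbol alone was taken.

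Group means of the 8 groups were fitted in limma 3.58.1 (R 4.3.3, with version 1.17.8 of data.table) with moderated variances, and p-values of 13 comparisons, a family each, were Benjamini-Hochberg adjusted across every cluster, with 0.05 as the threshold. The fit was tested on simulated data. Tables and figures were made in Python 3.11.15 with pandas 2.3.3, numpy 2.4.6 and matplotlib 3.10.9. The mice are separate animals. Array depth has no count, and the number of arrays limits the precision. No 2 arrays held identical values, and the labels give no batch.

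The 43 genes and all lists were chosen with earlier results of these data known. Values per mouse are given at day 3 for the genes with the lowest p of the F test over the 4 doxorubicin comparisons (4 effectors, 3 modifiers and 2 of each other role), with those of day 7 for some, and, in the groups compared, for the 2 genes with the lowest p in each genotype interaction and each saline comparison of genotype. Ifit1, Igtp, Samd9l, Gzmb, Ifnar2 and Ifngr2 were added after their values were seen. Single values of some genes of the lists are not reported here. Alternatives changed the samples in the fit, the variance model, the clusters tested, the normalization, array weights, a covariate for the spread of each array, the cluster of a gene and the mice.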

Additional observations from a re-analysis of the deposited data

Results flagged for a closer look

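Within groups of 5 mice, 352 sets of values (the 43 genes and their mean in each of 8 groups) were searched for a mouse far from the other 4, by Dixon's test at a critical value of 0.71. Chance alone flags about 1 in 20 groups, and 19 of the 352 were found, in 10 mice, which is near that share. The sets are not independent, because the genes varied together within groups. Mouse 102 of WT-Dox7 was low in Zbp1 (6.97, others 9.49 to 10.30), Dtx3l (8.29), Igtp (6.68), Cxcl9 (6.69) and Ifi35 (7.71). Mouse 206 of WT-NaCl7 was low in Irf1 (9.16), Parp9 (8.70) and Gbp2 (7.66). The same mice had the lowest T and NK marker means of their groups, 6.08 and 5.90. Mouse 192 of WT-Dox3 was low in Oas2 (6.65, others 7.88 to 8.25) and Bst2 (9.57, others 11.35 to 11.73), and mouse 162 of KO-Dox3 in Trim30a (8.70) and in the mean of the 43 genes (8.47). Mouse 220 of KO-NaCl3 was high in Ifi44 (8.48, others 5.60 to 6.24) and Ifi27l2a (6.67). Single values were Oas2 of mouse 104 of WT-NaCl7 (6.97, high), Rsad2 of mouse 236 of KO-Dox3 (8.73, high), Iigp1 of mouse 244 of WT-Dox3 (8.37, high), Cmpk2 of mouse 42299 of KO-Dox7 (8.13, low) and Trim30a of mouse 136 of KO-Dox7 (7.66, low).

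The doxorubicin effect differed between day 7 and day 3 for 19 results by limma's test of the interaction, with day 7 minus day 3 as the direction. In KO mice these were Irf1 (1.56), Irf7 (-1.45), Dhx58 (-1.004), Ifit1 (-2.39), Ifit2 (-1.01), Ifit3 (-1.57), Oas1a (-2.22), Oas2 (-1.65) and Oas3 (-1.37). Also in KO mice they were Oasl2 (-1.87), Mx2 (-0.54), Rsad2 (-2.07), Samd9l (-1.44), Usp18 (-2.84), Trim30a (-1.27), Rtp4 (-1.67) and Xaf1 (-1.37). In WT mice they were Oas2 (-1.92) and Samd9l (-1.09).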

How the results depend on the processing

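Across 10 other settings and 2 alternatives added after the data were seen, the count of genes changed by doxorubicin in KO mice at day 3 (25) lay between 19 and 29, and that of the change between days in KO mice (17) between 14 and 18. The count in WT mice at day 3 (11) was less stable: 2 with only the groups compared in the fit, 1 by the methods' test without moderation, 6 with arrays centred on their medians, 7 with the interquartile range of each array as a covariate, 17 over clusters above the median brightness, and 17 without mice 102 and 206. In KO mice at day 7 (1) it was 0 with only the groups compared, 0 by the methods' test, 0 after quantile normalization again, 2 over the brighter clusters, 2 over clusters with 1 symbol, 2 with the mean over the clusters of a gene, 3 without mice 102 and 206, 4 with the interquartile range and 5 with array weights. For the change between days in WT mice (2) it was 0 by the methods' test, 1 with only the groups compared, with array weights, with trended robust variances, after a further quantile normalization or with centred arrays, 4 over the brighter clusters and 6 without mice 44 and 46. The cause was not tested. Without 1 mouse at a time, the counts were 20 to 29 in KO mice at day 3, 5 (without mouse 232 of WT-Dox3) to 16 (without mouse 192 of WT-Dox3) in WT mice at day 3, 0 (without mouse 136 of KO-Dox7, for example) to 2 (without mouse 42295 of KO-NaCl7) in KO mice at day 7, 15 to 17 for the change between days in KO mice and 1 to 6 (without mouse 192) in WT mice. The other 8 comparisons gave 0 under all of these. No called gene turned its direction. Without mice 102 and 206 the median of the 43 genes turned to -0.023 for KO against WT mice after saline at day 7 (main value 0.11) and to 0.0075 for doxorubicin in WT mice at day 7 (main value -0.034), with 0 genes called in either. Among single genes in WT mice at day 3, the Oas1a call (adjusted p = 0.0485) was lost in 32 of the 40 fits without 1 mouse and Irf7's without mouse 232 (0.85) or 244 (0.80). Oas2 lost its call in 1 setting, the methods' test. Dhx58 lost its call in 3 settings and without either of 2 mice, Ifit2 in 4 settings and without any of 3 mice. Ifit3 lost its call in 2 settings and Mx2 in 3, and neither lost it without 1 mouse. No paired analysis was possible because every mouse has a number of its own and no number recurs in another group. Signals under 6.99, the highest background, limit what can be seen for 12 of the 43 genes.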

Other observations

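Of 8 markers of B and plasma cells, 4 fell with doxorubicin in KO mice at day 7 (-3.03 for Ms4a1 and -1.79 for Cd79b), against 0 of 8 in WT mice, and the difference between the genotypes did not pass for any of the 8. At day 3, only Sdc1 of the 8 passed, and it rose in both genotypes. Ms4a1, Cd79b and Sdc1 had means under the highest background. In saline mice at day 3, the 43 genes, the T and NK markers and the B and plasma cell markers all had negative median differences between KO and WT mice (-0.44, -0.58 and -0.50), with 0 genes of any of the lists past the test. Between day 7 and day 3 of saline mice, 0 of the 43 genes passed and 40 were lower at day 7 (55.2% of all clusters were lower), with a median of -0.20. Without mice 44 and 46, 34 were lower (56.8% of all clusters were lower), with a median of -0.0947. The direction of that change followed from leaving out the 2 highest WT-NaCl3 mice.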
